A study of Arabidopsis thaliana with 12 samples.

Results

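U6 small nuclear RNA (snRNA) was followed through a crosslinking and immunoprecipitation sequencing (CLIP-seq) study of fibrillarin in Arabidopsis thaliana. The U6 loci examined were U6-1 (AT3G14735), U6-26 (AT3G13855) and U6-29 (AT5G46315), and their peaks were picked by the locus that each peak's name begins with, in all 12 deposited peak lists. Only U6-29 had peaks: 74 of the 1037099 peaks of the series, with 7327 reads, carried its name. U6-1 and U6-26 had 0 named peaks in every library, so that the sum over the 3 loci equals the U6-29 value throughout. The study asked which RNAs associate with the fibrillarins FIB1 and FIB2. It used 14-day-old Col-0 seedlings grown on Murashige and Skoog plates under long days and crosslinked with ultraviolet light. There were 4 libraries from seedlings expressing GFP-FIB1, 4 from seedlings expressing CFP-FIB2, and 4 from seedlings expressing GFP alone as the negative control. The labels name neither the promoters behind the fusions nor the antibody, and the labels do not say whether replicates came from separate cultures, so p-values measure only the spread between these libraries.

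U6 is the snRNA at the catalytic centre of the spliceosome. It enters as a duplex with U4, is released from it, and then pairs with U2, while its ACAGAGA box pairs with the 5′ splice site of the intron. Unlike the other spliceosomal snRNAs of the major pathway, U6 is made by RNA polymerase III, in plants from an upstream sequence element (USE) and a TATA box, and it keeps a 3′ tail of uridines that the La protein and then a ring of Lsm proteins bind. Fibrillarin is the enzyme of the box C/D snoRNA complexes: guided by the snoRNA, it adds methyl groups to riboses of ribosomal RNA and, in vertebrates, also of U6.

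Peaks on near-identical copies of U6 can be told apart only where their letters differ, so the copies were compared first. Letters were read from the RefSeq TAIR10.1 genome along the RNA strand, with positions counted from 1 at the 5′ end of the snRNA. The genome held 6 copies with at most 2 differences over the first 91 nt: U6-26, U6-1, U6-29, U6.4 (AT4G04615, chromosome 4, minus strand), U6.3 (AT4G07875, chromosome 4) and a site inside the noncoding transcript AT5G09115 (chromosome 5). U6-29 differed from the other 5 at position 10 alone within these 91 nt. All 6 copies were identical over 87 nt, from position 11 to 97. The annotation places U6-29 inside a gene of 912 nt (chr5:18787079-18787990, plus strand), with the snRNA inside it. The U6-26 snRNA overlaps the protein-coding gene AT3G13857 (chr3:4561107-4561345). U6.5 (AT4G08755), on the minus strand of chromosome 4, is a diverged copy with 6 substitutions in the same window.

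The number of reads named for U6-29 overlapped between the groups. U6-29 had 642, 647, 506 and 619 reads in peaks in GFP-FIB1 libraries 1 to 4, 815, 783, 623 and 440 in CFP-FIB2 libraries 1 to 4, and 413, 591, 765 and 483 in GFP libraries 1 to 4. The lowest library was GFP 1 and the highest was CFP-FIB2 1. The mean was 603.5 ± 66.1 reads in GFP-FIB1, 665 ± 172 reads in CFP-FIB2 and 563 ± 153 reads in GFP (SD, n = 4 each). The reads fell into 7, 6, 6 and 6 peaks in GFP-FIB1, 7, 4, 8 and 6 peaks in CFP-FIB2, and 10, 8, 3 and 3 peaks in GFP.

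Libraries held between 2811379 and 12438185 reads in peaks, the only depth known here, so U6 was also expressed as a share of them. U6 accounted for 0.0159%, 0.00641%, 0.00758% and 0.0111% of them in GFP-FIB1 libraries, 0.0105%, 0.00725%, 0.00737% and 0.00354% in CFP-FIB2 libraries, and 0.0147%, 0.0129%, 0.00661% and 0.00655% in GFP libraries. The highest and lowest GFP-FIB1 values lay outside the GFP range and the other two inside it, and the lowest of all was CFP-FIB2 4. The mean share was 0.0102% ± 0.00425 in GFP-FIB1, 0.00717% ± 0.00285 in CFP-FIB2 and 0.0102% ± 0.00424 in GFP (SD, n = 4 each). No pair of groups differed beyond this spread in two-sided exact permutation tests, whose smallest possible p is 0.0286. The p was 1 for GFP-FIB1 against GFP, 0.314 for CFP-FIB2 against GFP and 0.343 for GFP-FIB1 against CFP-FIB2, or 1, 0.514 and 0.514 after Benjamini-Hochberg adjustment over the 3 pairs.

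The libraries fell into 3 sets that the labels do not name, seen in correlations of peak values over 1273 protein-coding genes. Set A held GFP-FIB1 1, CFP-FIB2 1, GFP 1 and GFP 2; set B held GFP-FIB1 2, CFP-FIB2 2 and GFP 3; set C held GFP-FIB1 3 and 4, CFP-FIB2 3 and 4, and GFP 4. Pearson's r was 0.511 to 0.920 within a set and 0.146 to 0.304 between set A and the others. Between sets B and C it was 0.457 to 0.690, which overlaps the range within sets, so these 2 sets are less clearly apart than set A is from both. Every set held all 3 groups. Permuting within the sets, the difference in U6 share was 0.00155 percentage points for GFP-FIB1 minus GFP (p = 0.222, adjusted p = 0.375) and −0.00125 for CFP-FIB2 minus GFP (p = 0.389, adjusted p = 0.389), by exact permutation.

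Values were also scaled to RPM, the reads in a gene's peaks relative to those of all tested genes, with a TMM factor for each library. On this scale U6-29 had 173, 64.5, 89.9 and 123 RPM in GFP-FIB1, 144, 80.7, 70.2 and 121 RPM in CFP-FIB2, and 144, 115, 90.0 and 86.7 RPM in GFP. The mean was 113 ± 47.0 RPM in GFP-FIB1, 104 ± 34.5 RPM in CFP-FIB2 and 109 ± 26.5 RPM in GFP (SD, n = 4 each). In the limma fit over 19559 genes the log2 fold change of U6-29 was −0.02 ± 0.91 (SE; 95% interval −1.93 to 1.90; adjusted p = 1.00) for GFP-FIB1 over GFP. It was −0.10 ± 0.91 (95% interval −2.01 to 1.82; adjusted p = 1.00) for CFP-FIB2 over GFP and 0.08 ± 0.91 (95% interval −1.84 to 2.00; adjusted p = 1.00) for GFP-FIB1 over CFP-FIB2. These intervals reach nearly 2 log2 units either way and rest on a spread that limma moderates across genes. They do not exclude a smaller enrichment of U6, and they are not a detection limit after adjustment over all genes. Without the TMM factor the log2 fold change of U6-29 was −0.53 for CFP-FIB2 over GFP and 0.52 for GFP-FIB1 over CFP-FIB2. With the library sets as a term the interval narrowed to −0.95 to 1.21 for GFP-FIB1 over GFP and to −1.03 to 1.13 for CFP-FIB2 over GFP. As background, limma without that term called 0% of the 19559 genes in each of the 3 comparisons at an adjusted p under 0.05, and with it 0.603% in GFP-FIB1 over GFP, 0.45% in CFP-FIB2 over GFP and 0% in GFP-FIB1 over CFP-FIB2. By unadjusted p under 0.05 there were 353 higher (1.8%) and 229 lower (1.17%) in GFP-FIB1 over GFP, 376 higher (1.92%) and 110 lower (0.562%) in CFP-FIB2 over GFP, and 95 higher (0.486%) and 136 lower (0.695%) in GFP-FIB1 over CFP-FIB2. Without the TMM factor, whose value was 0.324 in CFP-FIB2 4, the split was 224 higher and 123 lower in CFP-FIB2 over GFP, and 146 higher and 31 lower in GFP-FIB1 over CFP-FIB2.

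**Figure D1:**
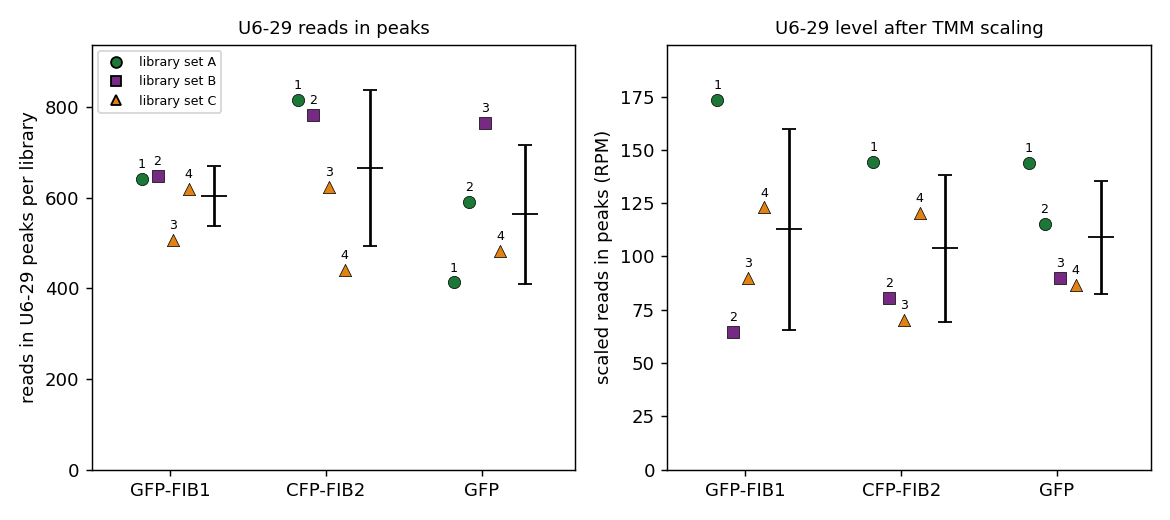
Reads in U6-29 peaks per library (left) and U6-29 level in TMM-scaled RPM (right), for GFP-FIB1, CFP-FIB2 and GFP; points are libraries numbered by replicate, with colour and shape for the library set, and bars give the mean ± SD of 4. The groups overlap on both axes, with reads from 506 to 647 in GFP-FIB1, 440 to 815 in CFP-FIB2 and 413 to 765 in GFP.

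U6 was next set against U2, the snRNA it pairs with in the active spliceosome, which removes the library total from the comparison. There were 258, 246, 79.3 and 193 U6 reads per 1000 U2 reads in GFP-FIB1, 287, 320.4, 97.7 and 134 in CFP-FIB2, and 378, 186, 202 and 367 in GFP. The 2 lowest libraries were GFP-FIB1 3 and CFP-FIB2 3, and the 2 highest were GFP libraries. The mean was 194 ± 81.3 in GFP-FIB1, 209.7 ± 110.3 in CFP-FIB2 and 283 ± 103 in GFP (SD, n = 4 each). On the log2 scale the ratio differed by −0.61 for GFP-FIB1 minus GFP, which did not pass (exact permutation p = 0.257, adjusted p = 0.514). For CFP-FIB2 minus GFP it was −0.53 (exact permutation p = 0.343, adjusted p = 0.514), and for GFP-FIB1 minus CFP-FIB2 it was −0.08 (exact permutation p = 0.914, adjusted p = 0.914). Without GFP-FIB1 3 the first difference was −0.22, and without CFP-FIB2 3 the second was −0.22. Within the library sets the differences were −0.44 for GFP-FIB1 minus GFP (exact permutation p = 0.444, adjusted p = 0.667) and −0.30 for CFP-FIB2 minus GFP (exact permutation p = 0.667, adjusted p = 0.667).

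The snoRNAs, the known partners of fibrillarin, give the scale of what the fusions recovered. For each U6 read there were 45.5, 1779.8, 840.3 and 809 snoRNA reads in GFP-FIB1, 85.4, 1716, 691 and 488 in CFP-FIB2, and 2.39, 14.0, 39.2 and 72.2 in GFP. Every CFP-FIB2 library exceeded the highest GFP library, whereas GFP-FIB1 1 lay inside the GFP range. The log2 ratio of U6 to snoRNA reads was −4.79 for GFP-FIB1 minus GFP (exact permutation p = 0.0571, adjusted p = 0.0857) and −4.75 for CFP-FIB2 minus GFP (exact permutation p = 0.0286, the smallest possible here; adjusted p = 0.0857). Without GFP-FIB1 1 the first difference was −5.92 with an adjusted p of 0.0429 by exact permutation. Within the sets the differences were −3.996 and −4.11, each with an exact permutation p of 0.0556 and an adjusted p of 0.0833. This p is the smallest possible against GFP within the sets, so neither difference could pass there. For GFP-FIB1 minus CFP-FIB2 it was −0.04 (exact permutation p = 0.971, adjusted p = 0.971). The snoRNA share of all reads in peaks was 0.722% to 11.4% for GFP-FIB1, 0.898% to 12.4% for CFP-FIB2 and 0.0351% to 0.473% for GFP. Fewer cells that express the tag and less RNA recovered per cell cannot be told apart in whole seedlings.

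**Figure D2:**
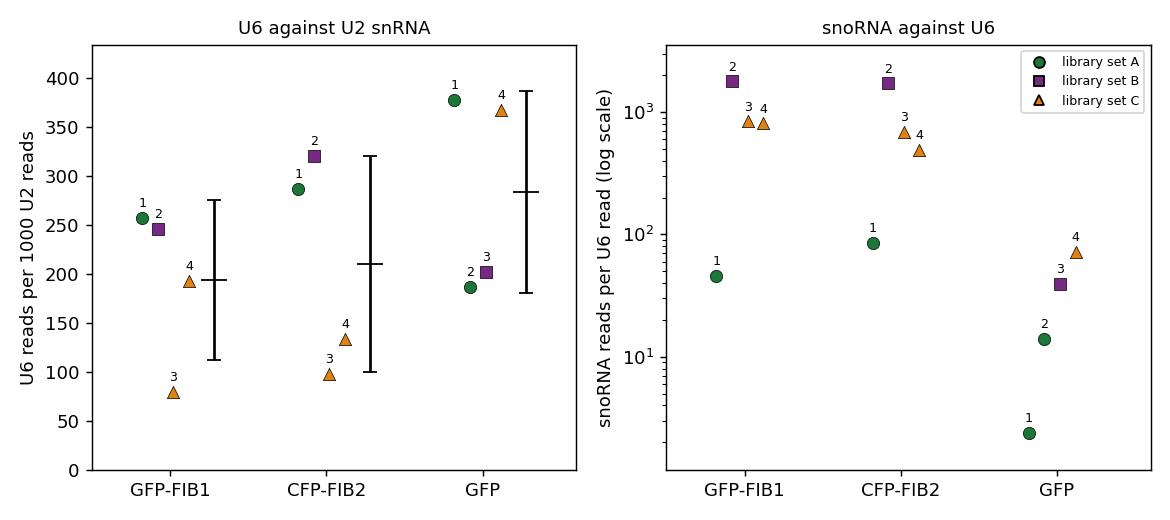
U6 reads per 1000 U2 reads (left, with mean ± SD of 4) and snoRNA reads per U6 read (right, log axis) in GFP-FIB1, CFP-FIB2 and GFP; points are libraries numbered by replicate, with colour and shape for the library set. The U6 to U2 values overlap between groups, while the snoRNA to U6 values run from 45.5 to 1779.8 in GFP-FIB1, 85.4 to 1716 in CFP-FIB2 and 2.39 to 72.2 in GFP.

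Of the 74 U6-29 peaks, 69 with 6753 reads lay on the snRNA and 5 with 574 reads lay upstream of it. Peaks were 2 to 53 nt wide (median 7) and held 5 to 505 reads (median 47). The authors' p-value for them was 0.0208 or less, and 12 peaks were listed with a p of 0. On the snRNA the peaks formed a chain in the middle of the RNA. No library had a peak on positions 1 to 7 or past position 95, so neither the first bases nor the last ones were covered. Positions 22 to 38, a stretch of 17 nt, were covered in all 12 libraries, GFP included. This stretch holds the ACAGAGA box at positions 28 to 34.

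The snRNA peak with most reads spanned positions 22 to 27 (334 reads), 11 to 19 (347), 14 to 38 (369) and 14 to 35 (346) in GFP-FIB1 libraries 1 to 4. In CFP-FIB2 libraries 1 to 4 it spanned 12 to 30 (505 reads), 12 to 24 (442), 13 to 43 (348) and 14 to 43 (321). In GFP libraries 1 to 4 it spanned 20 to 23 (117 reads), 20 to 27 (269), 8 to 19 (469) and 18 to 70 (274). It covered positions 22 and 23 in 10 of the 12 libraries, the exceptions being GFP-FIB1 2 and GFP 3, where the leading peak ended at position 19. The leading peak was widest in set C: 25 and 22 nt in GFP-FIB1 3 and 4, 31 and 30 nt in CFP-FIB2 3 and 4, and 53 nt in GFP 4. In the other libraries it was 6 and 9 nt in GFP-FIB1, 19 and 13 nt in CFP-FIB2, and 4, 8 and 12 nt in GFP.

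Peaks centred at or before the end of the ACAGAGA box took 67.8%, 84.7%, 81.1% and 72.4% of the snRNA reads in GFP-FIB1, 67.6%, 75.6%, 72.05% and 82.3% in CFP-FIB2, and 70.9%, 72.8%, 84.4% and 0% in GFP. GFP 4 stood apart because its leading peak from 18 to 70 spans the box and has its centre beyond it. The exact permutation p was 0.543 for GFP-FIB1 against GFP, 0.657 for CFP-FIB2 against GFP and 0.714 for GFP-FIB1 against CFP-FIB2, and 0.714 for each after adjustment. The peaks covered 42, 73, 82 and 63 nt of the snRNA in GFP-FIB1, 67, 33, 67 and 64 nt in CFP-FIB2, and 61, 58, 62 and 72 nt in GFP, again with overlapping groups.

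The read-weighted mean centre of all U6-29 peaks, upstream peaks included, was at position 21.5 ± 11.4 in GFP-FIB1, 22.5 ± 9.11 in CFP-FIB2 and 19.7 ± 19.0 in GFP (SD, n = 4 each). The centre differed by 1.78 nt for GFP-FIB1 minus GFP, 2.77 nt for CFP-FIB2 minus GFP and −0.98 nt for GFP-FIB1 minus CFP-FIB2, with exact permutation p of 0.857, 0.857 and 0.971 and an adjusted p of 0.971 for each. Within the library sets the first 2 differences were 8.73 nt and 9.24 nt (exact permutation p = 0.222 and 0.111, adjusted p = 0.333 for both). With peaks on the snRNA alone the centre was at 31.5 ± 3.05 in GFP-FIB1, 33.2 ± 5.44 in CFP-FIB2 and 33.2 ± 10.02 in GFP (SD, n = 4 each), so that the differences from GFP were −1.65 nt and 0.04 nt. In each group the spread was narrower without the upstream peaks.

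**Figure D3:**
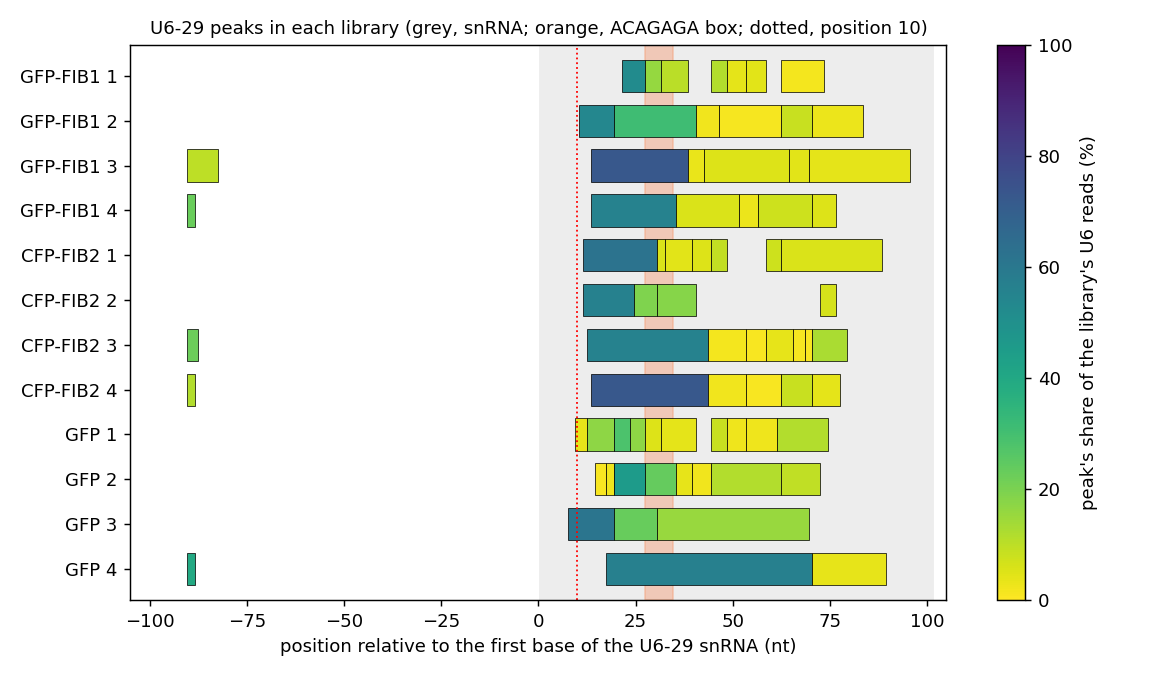
Every U6-29 peak in the 12 libraries, GFP-FIB1 above CFP-FIB2 above GFP, along the snRNA (grey; 0 on the axis lies just before the first base); colour gives the peak's share of the library's U6 reads in percent, the orange band is the ACAGAGA box and the dotted line is position 10. The chain of peaks crosses the box in all 12 libraries, and a separate short peak 91 nt upstream appears in 5 libraries, GFP 4 among them.

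The 5 upstream peaks all began 91 nt before the snRNA and were 2, 3 or 8 nt wide. They held 51 and 141 reads in GFP-FIB1 3 and 4, 140 and 50 reads in CFP-FIB2 3 and 4, and 192 reads in GFP 4, which is 10.1%, 22.8%, 22.5%, 11.4% and 39.8% of the U6-29 reads of these libraries. They were found in all 5 libraries of set C, GFP included, and in none of the 7 libraries of sets A and B. Every group thus had the peak in its set C libraries and in no other. The 100 nt upstream of U6-29 and of U6-1 are given to place the peak against the promoter elements, with TCCCACATCG, the core of the plant USE, and TATATA in capitals; position −1 is the last base before the snRNA.
U6-29, chr5:18787297-18787396 (+): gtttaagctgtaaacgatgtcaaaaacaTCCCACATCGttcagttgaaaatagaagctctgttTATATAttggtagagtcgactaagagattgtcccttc
U6-1, chr3:4951497-4951596 (+): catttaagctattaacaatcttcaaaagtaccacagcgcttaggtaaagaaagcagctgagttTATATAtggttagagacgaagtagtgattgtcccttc

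At U6-29 the USE core lay at −72 to −63 and TATATA at −37 to −32, so the upstream peak began 5′ of both. TATATA lay at −37 to −32 in all 6 copies. The USE core was present in 4 of them, at −73 to −64 in U6-26, U6.3 and the AT5G09115 site, and these exact letters were not in the windows of U6-1 and U6.4. Searched on both strands of the 100 nt before 37897 annotated genes, TCCCACATCG was found in 70 windows (0.185%), TATATA, which is its own reverse complement, in 5789 (15.3%), and both in 37 (0.0976%). The matches of the 2 motifs at U6-29 do not overlap.

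Peaks at the other copies were located by coordinates, since the names hide them. The AT5G09115 site had peaks in all 12 libraries with 859 reads, 12.7% of the reads on the U6-29 snRNA. It had 94, 50, 12 and 36 reads in GFP-FIB1, 322, 83, 27 and 19 reads in CFP-FIB2, and 66, 89, 52 and 9 reads in GFP. Its highest library was CFP-FIB2 1 and its lowest GFP 4, and the groups overlapped. Its peaks began at positions 1 to 9 and covered position 10 in all 12 libraries, with 734 reads in the peaks that did so. On U6-29, whose letter at position 10 differs, a peak covered position 10 in 2 libraries, GFP 1 and GFP 3. Of the U6-29 snRNA reads, 6269 (92.8%) were in 67 peaks lying wholly within positions 11 to 97, where all 6 copies have the same letters. No source used here says how reads that match several copies were placed. Reads under these 67 peaks could therefore come from any of the 6 copies. The diverged copy U6.5 has the same letters between its substitutions, so reads that match only such stretches could also come from U6.5.

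The U6-26 site had peaks in 6 libraries with 52 reads in all, named for AT3G13857 and beginning 1 to 4 nt before the snRNA. U6.3 had a peak of 13 reads in GFP-FIB1 2 alone, and U6-1 and U6.4 had no peak by coordinates either. Summed over the 6 copies, the snRNA reads were 736, 723, 470 and 520 in GFP-FIB1, 1137, 876, 510 and 409 in CFP-FIB2, and 479, 693, 824 and 300 in GFP. The ranges of the groups overlapped in this sum as in U6-29 alone. The diverged copy U6.5 had 0, 23, 52 and 17 reads in GFP-FIB1, 0, 193, 64 and 15 reads in CFP-FIB2, and 0, 0, 209 and 193 reads in GFP. No library of set A had a U6.5 peak. In CFP-FIB2 3 and GFP 4 the reads include peaks of 12 and 10 reads named for the overlapping gene AT4G08735. U6.5 entered the fit only with the peaks named for AT4G08755. Its log2 fold change in the fit was −0.64 ± 1.18 for GFP-FIB1 over GFP and −0.06 ± 1.18 for CFP-FIB2 over GFP (SE; limma adjusted p = 1.00 for both). With the library sets as a term it was −1.52 ± 0.62 for GFP-FIB1 over GFP (limma adjusted p = 0.561) and −0.94 ± 0.62 for CFP-FIB2 over GFP (limma adjusted p = 0.895).

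The other spliceosomal snRNAs are listed to show U6 among its partners: U1 recognises the 5′ splice site and U2 the branch point, and U4 and U5 travel with U6 in the tri-snRNP. Of 82 annotated spliceosomal snRNA genes, 46 had a peak and 27 passed the filter on low values. The list follows the annotation's names, and only 5 of its 14 loci named U6 span one of the 6 copies counted above. A listed locus without a peak may therefore hold no snRNA. None of the 27 was called at an adjusted p under 0.05 in any comparison, against 0% of all genes. At an unadjusted p under 0.05, 0 members were higher and 0 lower in GFP-FIB1 over GFP. In CFP-FIB2 over GFP 2 were higher, U2.10 and U4.2 (AT3G06900), and 0 were lower. In GFP-FIB1 over CFP-FIB2 1 was higher, U2.17 (AT5G02245), and 0 were lower, beside the background shares given above. With the library sets as a term, 3 were higher in GFP-FIB1 over GFP, U1.2, U2.10 and U2.17, and 1 was lower, U6.5, beside 3.37% higher and 4.2% lower among all genes. In CFP-FIB2 over GFP this fit had 6 higher, among them U1.5, U2.10 and U4.2, and 0 lower, beside 3.2% and 2.84%. In GFP-FIB1 over CFP-FIB2 it had 1 higher, U2.17, and 1 lower, U6acat (AT5G40395), beside 2.05% and 2.33%. None of these passed adjustment over all genes. Many of these genes are near-identical copies within their class, so their reads may be divided arbitrarily among them.

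The median log2 fold change of the 27 genes was 0.50 for GFP-FIB1 over GFP, with 22 values above 0. It was 0.59 for CFP-FIB2 over GFP, with 20 above 0. Over all 19559 genes the medians were 0.06 and 0.09, with 10414 and 10927 values above 0. By class, for GFP-FIB1 over GFP and then CFP-FIB2 over GFP, the medians were 0.90 and 1.30 over 7 U1 genes, 0.62 and 0.40 over 10 U2 genes, 0.46 and 0.45 over 3 U4 genes, 0.15 and 0.80 over 2 U5 genes, and 0.59 and 1.37 over 3 genes of the minor spliceosome. The 2 U6 genes tested, U6-29 and U6.5, had medians of −0.33 and −0.08, the lowest of the classes in both comparisons. In GFP-FIB1 over GFP these 2 genes lay apart, U6-29 at −0.02 and U6.5 at −0.64. With the library sets as a term U6-29 was at 0.13 and 0.05, and U6.5 at −1.52 and −0.94. U6-29 then lay above the U5 median of −0.08 for GFP-FIB1 over GFP. Without the TMM factor the median over all genes for CFP-FIB2 over GFP was −0.10, that of the 27 snRNA genes was 0.21, that of the U2 genes was −0.04 and the U6 median was −0.35. For this comparison 16 of the 27 snRNA genes, and 8586 of all 19559, were then above 0.

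Of the snRNA genes with the largest fold changes, U1.2, U2.10 and U1.7 had no peak in some libraries, while U1.5 and U2.3 had peaks in all 12. U1.2 (AT4G07120) had 23.0, 93.2, 0 and 0 RPM in GFP-FIB1, 0, 141, 0 and 0 RPM in CFP-FIB2, and 0, 0, 0 and 2.51 RPM in GFP. U2.10 (AT2G04375) had 0, 0, 11.02 and 8.74 RPM in GFP-FIB1, 4.07, 0, 5.30 and 6.30 RPM in CFP-FIB2, and no peak in any GFP library, so no fold change is given. U1.5 (AT1G08115) had 125, 483, 120.1 and 75.9 RPM in GFP-FIB1, 112, 523, 149 and 445 RPM in CFP-FIB2, and 57.5, 58.9, 42.8 and 165 RPM in GFP. The GFP 4 value of U1.5 lay inside the range of both fusion groups. U1.7 (AT3G01695) had 0 to 38.9 RPM in GFP-FIB1, 0 to 65.6 RPM in CFP-FIB2 and 0 to 8.24 RPM in GFP, with a log2 fold change of 2.01 ± 1.23 (SE) for CFP-FIB2 over GFP. U2.3 (AT3G57765) had the largest negative values, −1.21 ± 1.34 for GFP-FIB1 over GFP and −1.33 ± 1.34 for CFP-FIB2 over GFP (SE), and ranged from 1.07 to 66.7 RPM in GFP-FIB1, 0.412 to 33.3 RPM in CFP-FIB2 and 1.65 to 74.1 RPM in GFP. With the library sets as a term U2.3 was −0.18 ± 0.56 and −0.31 ± 0.56, and the most negative of the 27 snRNA genes was then U6.5 in both comparisons.

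The mRNAs of proteins that bind or modify U6 were the last group. They comprised 16 genes for the Lsm ring, the La protein La1, the tri-snRNP proteins LIS (the PRP4 homologue) and emb1220 (the PRP31 homologue), L7Ae family proteins and FIO1, which places N6-methyladenosine on U6. Of these, 11 were tested and 0 were called at an adjusted p under 0.05, against 0% of all genes. At an unadjusted p under 0.05 1 was higher and 0 were lower in each comparison with GFP, and it was LSM4 both times. Among all genes 1.8% were higher and 1.17% lower in GFP-FIB1 over GFP, and 1.92% and 0.562% in CFP-FIB2 over GFP. The median log2 fold change of the 11 was 0.16 for GFP-FIB1 over GFP and 0.55 for CFP-FIB2 over GFP.

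LSM4 (AT5G27720), a member of the Lsm ring, had 4.86, 5.58, 21.9 and 19.9 RPM in GFP-FIB1, 6.19, 11.8, 13.0 and 23.8 RPM in CFP-FIB2, and 0, 1.75, 4.35 and 1.80 RPM in GFP. All 4 libraries of each fusion lay above all 4 GFP libraries. Such a separation was seen in 0.951% of all tested genes for GFP-FIB1 over GFP and in 1.24% for CFP-FIB2 over GFP. The log2 fold change was 2.20 ± 0.76 (SE; limma adjusted p = 1.00) for GFP-FIB1 over GFP and 2.40 ± 0.76 (SE; limma adjusted p = 1.00) for CFP-FIB2 over GFP. With the library sets as a term it was 1.83 ± 0.55 and 2.03 ± 0.55, with adjusted p of 0.244 and 0.195. FIO1 (AT2G21070) had a log2 fold change of −0.96 ± 1.44 for GFP-FIB1 over GFP and −1.44 ± 1.44 for CFP-FIB2 over GFP (SE), with 2.19 to 119.9 RPM in GFP-FIB1, 1.92 to 43.9 RPM in CFP-FIB2 and 1.08 to 204 RPM in GFP. With the library sets as a term FIO1 changed sign to 0.21 ± 0.56 for GFP-FIB1 over GFP and was −0.28 ± 0.56 for CFP-FIB2 over GFP. emb1220 (AT1G60170) had a log2 fold change of 0.59 ± 0.74 for GFP-FIB1 over GFP, and LSM6B (AT2G43810) one of 0.93 ± 0.67 for CFP-FIB2 over GFP (SE; limma adjusted p = 1.00 for both).

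**Figure D4:**
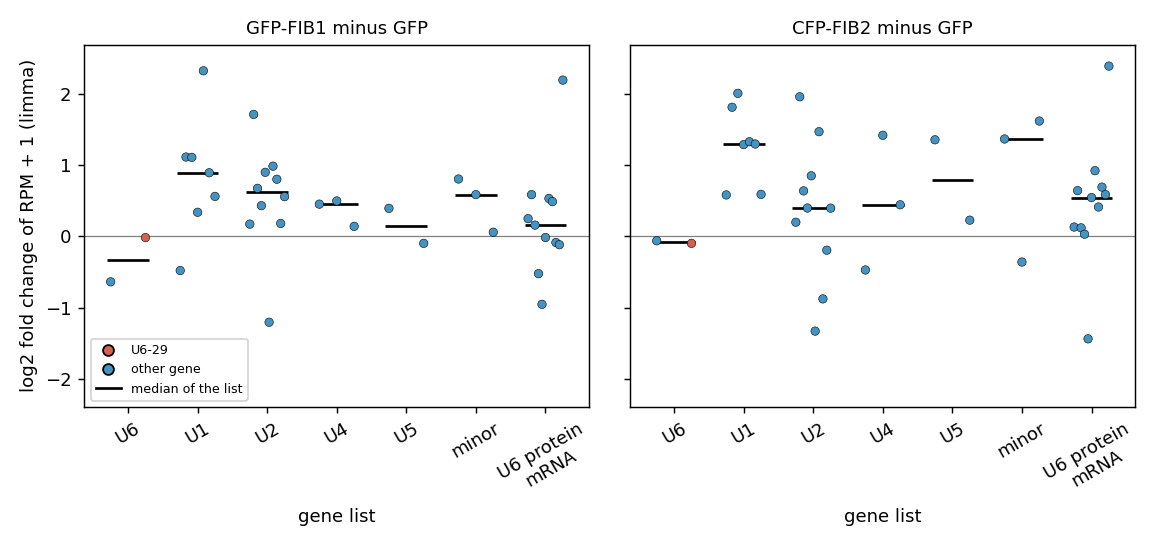
log2 fold changes (limma, on RPM + 1) over GFP of the tested spliceosomal snRNA genes by class and of the mRNAs of U6-associated proteins, for GFP-FIB1 (left) and CFP-FIB2 (right); each point is a gene, U6-29 is red, black lines are medians, and the U2.10 point depends on the pseudocount because GFP has no peak there. U6-29 sits at −0.02 and −0.10, below the medians of the U1, U2, U4, U5 and minor classes. No gene passed an adjusted p under 0.05. With the library sets as a term, which is not drawn, U6-29 was at 0.13 for GFP-FIB1 over GFP, above the U5 median of −0.08.

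The genes whose level over the 12 libraries was most like that of U6-29 were 4 protein-coding genes and a pseudogene. By Pearson's r of log2(RPM + 1) among 19558 other genes, they were PSY1R (AT1G72300, r = 0.928), a receptor kinase, AT5G22720 (r = 0.907), AT2G42140 (r = 0.884), AT2G13463 (r = 0.879) and the pseudogene AT3G20365 (r = 0.872). Among the other 26 tested snRNA genes the median r was −0.00394 and the highest was that of U2.3 (AT3G57765, r = 0.811), which ranked 41 among all genes. These correlations describe 12 libraries that share sets, depth and groups, and carry no test.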

How the data were processed

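CLIP-seq peak lists of 12 libraries (3 groups of 4) were analysed; groups and replicate numbers come from the sample titles. The authors deposited 1 list per library with no header, giving a region, strand, p-value and name for each peak; the p-value is the authors' own. The name ends in a whole number whose meaning the deposited files do not state. It was read as reads in the peak, since it fell as the p-value rose (Spearman −0.973 to −0.995 in each library). DESeq2 is named in the submitters' processing notes; aligner, peak caller, build, duplicate removal and the handling of multiply mapping reads: not given in the sources used here. A gene with no called peak counts as 0 although it may have reads, total depth is unknown, and reads may include PCR copies. Starts were read as zero-based; neighbouring U6 peaks then abut without overlap. Of 624188 peaks named for annotated nuclear genes, 99.9% lay inside that gene's RefSeq TAIR10.1 bounds on its strand, so those coordinates and sequences were used. The letters of the snRNA itself are not reported here.

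Where peaks of a library overlapped, the peak with the highest read number was kept (4109 removed). Genes needed 10 reads at median depth in 4 libraries and 15 in all. RPM were scaled by TMM factors (trims of 30% and 5%), and log2(RPM + 1) was fitted over all 12 libraries with a mean-variance trend in limma 3.58.1 (R 4.3.3), with Benjamini-Hochberg adjustment and a threshold of 0.05; the pseudocount of 1 lowers fold changes of low genes. Single values were compared by two-sided exact permutation over 70 splits (Python 3.11.15, numpy 2.4.6). The fit was tested on simulated counts drawn without library sets. That test does not show how the fit performs on these libraries. Same-numbered libraries of GFP-FIB1 and CFP-FIB2 deviated together across genes (r = 0.549, 0.457, 0.359 and 0.418). In set C, r was also 0.446 for GFP-FIB1 4 with CFP-FIB2 3 and 0.351 for GFP-FIB1 3 with CFP-FIB2 4. Same-numbered libraries of the 2 fusions share a set, so pairing by number and by set cannot be told apart. Named genes were the U6 loci, the 3 snRNA genes and 3 protein mRNAs with the largest absolute fold change against GFP, and the 5 genes most like U6-29; U6.5, U4.2, U2.17, U6acat, AT5G09115 and the copies were added after their values were seen. Members and lists were chosen with earlier results of these data known. Alternatives covered the peak threshold, denominators, scaling, pseudocount, filter, library sets, replicate block and each library left out.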

Additional observations from a re-analysis of the deposited data

Results flagged for a closer look

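In GFP 4 the share of snRNA reads in peaks centred at or before the end of the ACAGAGA box was 0%, against 70.9% to 84.4% in the other 3 GFP libraries, a gap beyond Dixon's limit for 4 samples. Its U6 reads lie in 2 snRNA peaks, and the centre of the larger, at position 44, falls past the box although the peak spans it. The number of U6 peaks in GFP-FIB1 1 was 7 against 6 in each of the other 3 GFP-FIB1 libraries, and 3 tied values make any other value stand out. Chance flags about 1 in 20 such groups.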

How the results depend on the processing

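Of 282 alternative values for 21 results, 240 kept the sign and the side of the threshold. Another 41 changed sign without passing it and 1 passed it. No U6 level, share or position passed under any alternative run, but not every alternative could pass. For shares, ratios and positions in every comparison, permutation within library sets and paired differences by replicate number allow too few orders to reach 0.05. Their not passing therefore carries no information. The other permutations could pass after adjustment only if at least 2 of the 3 pairs of groups reached the smallest possible p. The 1 that passed was the log2 U6 to snoRNA ratio for GFP-FIB1 minus GFP without GFP-FIB1 1; leaving out each library gave −5.92 to −3.83. For GFP-FIB1 minus GFP, the U6 share changed sign to −0.000106 percentage points with all peaks kept, −0.000128 with snRNA peaks only and −0.000244 summed over all copies, and the centre of U6 reads to −3.13 nt for the peak with most reads, −1.65 nt for snRNA peaks only and −2.54 nt for these within library sets. The centre for CFP-FIB2 minus GFP became −1.75 nt for the peak with most reads and −1.56 nt for snRNA peaks within sets. The U6-29 log2 fold change for GFP-FIB1 over GFP became 0.0456 with median-of-ratios factors and 0.13 with sets as a term, and for CFP-FIB2 over GFP 0.0519 with sets as a term. The U6 to snoRNA ratio for GFP-FIB1 minus CFP-FIB2 was 0.12 within sets. The alternatives with snRNA peaks only or all copies, and the snoRNA ratio itself, were chosen after seeing the data, and the cause of the sign changes was not tested.

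Leaving out each library in turn gave, for GFP-FIB1 minus GFP, a U6 share difference of −0.00183 to 0.00154 percentage points, a centre difference of −7.39 to 6.95 nt and a U6-29 log2 fold change of −0.27 to 0.21. For CFP-FIB2 minus GFP the centre difference was −6.40 to 7.48 nt and the log2 fold change −0.17 to 0.16. The log2 U6 to U2 ratio was −0.79 to −0.22 for both fusions minus GFP. For GFP-FIB1 minus CFP-FIB2 the centre difference was −4.95 to 4.19 nt, the log2 fold change −0.20 to 0.31, the log2 U6 to U2 ratio −0.39 to 0.31 and the log2 U6 to snoRNA ratio −1.18 to 0.78. Over all genes limma called 118 in GFP-FIB1 over GFP and 88 in CFP-FIB2 over GFP with the library sets as a term, 114 and 108 with the replicate number as a block, 4 in GFP-FIB1 over GFP without GFP-FIB1 1 and 1 without GFP 4, and 0 in these 2 comparisons under the other alternatives run; none of those called was a spliceosomal snRNA or U6-associated protein gene. With the replicate number as a block the U6-29 log2 fold changes were −0.02, −0.10 and 0.08 (limma adjusted p = 0.998, 0.995 and 1.00), and it changed no call of a member or listed gene; the numbers do not pair the fusions with GFP by the rule that every pair's r exceed 0.1, since r was 0.576, −0.0530, 0.272 and 0.566 for GFP-FIB1 and 0.539, −0.206, 0.202 and 0.477 for CFP-FIB2 (replicates 1 to 4). The centre for U6-1 alone was not run because it has no peak. Depth limits the result through the called peaks: reads of U6 outside peaks are not seen.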
